A study of Mus musculus with 9 samples.

Results

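The neurons described here are CGRP nociceptors of the mouse trigeminal ganglion with a transcript of Sstr2, Dcdc2a or Gpr64, 3 genes called the choosing genes below. They were picked barcode by barcode from a Dropseq table, and 119 of its 6997 cell barcodes were picked. A barcode had to hold between 500 and 7500 genes, at least 3 of 6 pan-neuronal genes (Tubb3, Scn9a, Snap25, Nefl, Nefm and Uchl1), no Epcam, 5 or more transcripts of Calca, fewer than 5 of Nefh and at least 1 of a choosing gene. It also had to hold fewer than 2 genes of each of 3 lists that mark other CGRP nociceptors. These are the Trpa1 list (Mfap5, Gpr83, Lpar1, Trpa1 and Fgg), the Cyp1b1 list (Cyp1b1, Kit, Dcn, Kcnk3 and Ccl21a) and the Fam150b list (Fam150b, Ptger1, Vat1l and Capn5). The measured values of all these genes chose the neurons, so their levels are a description and no finding.

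Trigeminal neurons were isolated from pooled wild type FVB/N mice aged 3 to 6 weeks by the labels, and glia were depleted with a neuron isolation kit after a Percoll gradient. There were 9 Dropseq runs, and no treatment or other genotype was compared. The table counts unique transcripts (UMIs), 30491529 in all, with 1000 to 190815 in a barcode. Barcodes do not name their run, and the cells had to be read as 1 pooled sample. Neither a test over samples nor a value within a run could therefore be made. Levels are UMIs per 1000000 UMIs of a group (CPM) and carry exact Poisson 95% intervals, while shares of barcodes carry Clopper-Pearson (exact binomial) 95% intervals. Ratios of levels have exact 95% intervals conditional on the summed UMIs. These intervals cover counting error only and say nothing of the spread between mice or runs.

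CGRP nociceptors are sensory neurons that signal harmful stimuli and release calcitonin gene-related peptide, the product of Calca, from their endings, where it widens blood vessels. Many also release substance P, made from Tac1. Sstr2 encodes a receptor for the inhibitory peptide somatostatin, Dcdc2a a doublecortin-domain protein that binds microtubules, and Gpr64 (Adgrg2 in current annotation) an orphan adhesion G protein-coupled receptor. On the GRCm38.p6 assembly Sstr2 lies on chromosome 11 (113619327 to 113626028), Dcdc2a on chromosome 13 (25055273 to 25210706), Gpr64 on chromosome X (160390318 to 160498076) and Calca on chromosome 7 (114625981 to 114636910). All 4 are protein-coding genes.

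Of 3855 barcodes that met the neuronal limits, 1365 also met those on Calca and Nefh and are called CGRP nociceptors here. The 119 chosen neurons made up 8.72% of them. Their median depth was 2166 UMIs, from 1036 in the shallowest to 10729 in the deepest, and the median number of genes was 1386. The other CGRP nociceptors were divided by the same lists. The Cyp1b1 group (349 barcodes, median 3097 UMIs), the Trpa1 group (167, median 2515 UMIs) and the Fam150b group (90) had 2 or more genes of that list alone, and a mixed group of 252 had 2 or more genes of several lists. The unmarked group (388, median 1910.5 UMIs) had no UMI of a choosing gene and fewer than 2 genes of every list.

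The name of these neurons held for part of them. A UMI of Sstr2 was found in 46 of the 119, of Dcdc2a in 60 and of Gpr64 in 50, so 92 had Sstr2 or Dcdc2a and 27 had Gpr64 alone. Most rested on little RNA: 71 had a single UMI of the choosing genes in all. The highest count in 1 neuron was 4 UMIs of Sstr2, 6 of Dcdc2a and 5 of Gpr64. More than 1 choosing gene was seen in 33 neurons (27.7%), and all 3 in 4. Calca ran from 5 to 116 UMIs per neuron with a median of 28. Near the limits, 4 chosen neurons had 5 or 6 Calca UMIs and 4 barcodes were left out by Calca alone with 3 or 4. For Nefh, 12 chosen neurons had 3 or 4 UMIs and 4 barcodes were left out with 5 or 6.

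Each choosing gene stood higher where another of them was seen, which could be read with the gene in question left out of the choice. Among the 507 CGRP nociceptors that were chosen or unmarked, barcodes with a UMI of either of the other 2 choosing genes were compared with barcodes that had neither. The Sstr2 level was 126 CPM (85.7 to 179) in 95 barcodes with Dcdc2a or Gpr64 and 23.0 CPM (15.6 to 32.6) in 412 without, a 5.49-fold difference (interval 3.23 to 9.34). For Dcdc2a, the levels were 218 CPM (161 to 287) in 84 barcodes and 32.9 CPM (24 to 44.1) in 423, 6.60-fold apart (4.33 to 10.1). Gpr64 was at 100 CPM (64.9 to 148) in 92 barcodes and 24.5 CPM (16.9 to 34.4) in 415, 4.09-fold apart (2.33 to 7.09). No interval of a level reached into that of the other side for any of the 3 genes. Part of the difference went with barcodes of other kinds: when barcodes with 2 or more markers of another neuron class were left out of both sides, the ratios were 1.31 for Sstr2, 1.53 for Dcdc2a and 1.09 for Gpr64 on the log2 scale, against 2.46, 2.72 and 2.03 with all barcodes. The intervals of these smaller ratios still lay above 0, from 0.52 to 2.09, from 0.90 to 2.17 and from 0.21 to 1.97.

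**Figure D1:**
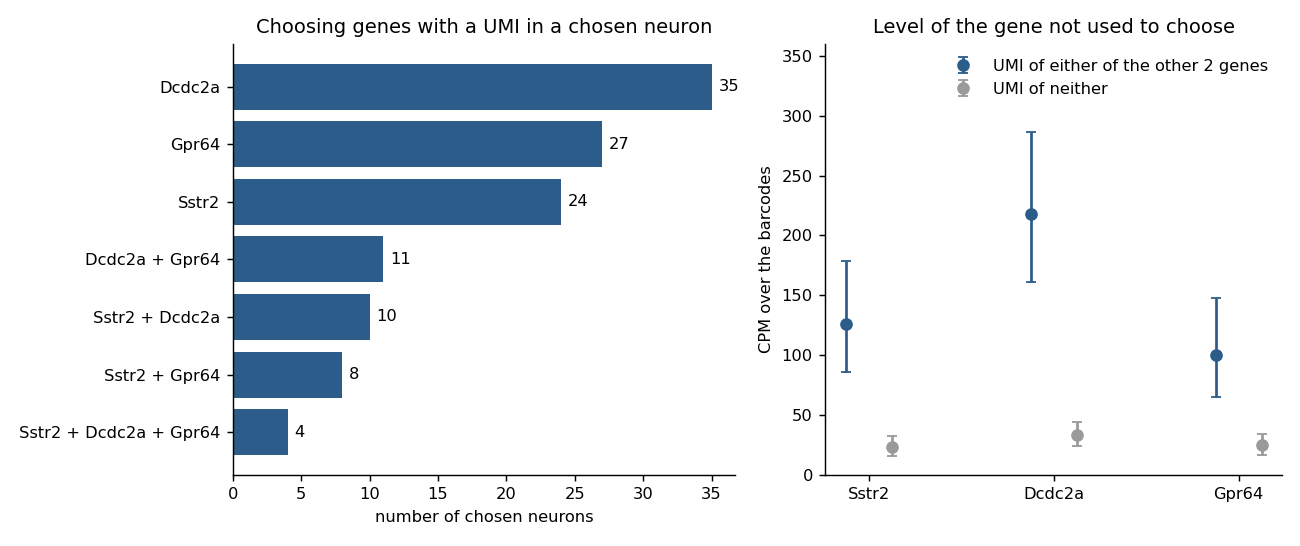
Left, number of chosen neurons (x axis) by the choosing genes with a UMI (y axis). Right, level in CPM (y axis) of each choosing gene in barcodes with a UMI of either of the other 2 genes (blue) and of neither (grey), with exact Poisson 95% intervals. Dcdc2a alone chose 35 neurons, the most of any single gene, and each gene stood at 100 to 218 CPM on the blue side and at 23.0 to 32.9 CPM on the grey.

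Most CGRP nociceptors with a choosing gene were not among the 119. There were 326 of them, and the lists removed 207, of which 83 had exactly 2 genes of 1 list. The removed neurons were mainly those with genes of the Cyp1b1 list. Of the 326, 54.0% (48.4 to 59.5%) had 2 or more genes of the Cyp1b1 list, against 32.4% (29.6 to 35.4%) of the 1039 without a choosing gene. The Trpa1 list went the other way, with 12.3% (8.91 to 16.3%) against 30.0% (27.3 to 32.9%), and so did the Fam150b list, with 15.6% (11.9 to 20.1%) against 22.8% (20.3 to 25.5%). Depth bears on such shares, as the median was 3299.5 UMIs in the 326 and 2676 in the others. With each barcode thinned to 1000 UMIs, the shares were 17.2% and 11.8% for the Cyp1b1 list and 3.99% and 13.3% for the Trpa1 list. For the Fam150b list they were 0.613% and 4.62%. No interval was made for the thinned shares, so whether the Cyp1b1-list gap exceeds counting error at equal depth was not tested.

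The border with the Cyp1b1 group was drawn by depth as well as by genes. After thinning to 1000 UMIs, 39.8% of the Cyp1b1 group still showed 2 genes of its list. Among the chosen neurons, 74 of 119 had exactly 1 gene of the Cyp1b1 list, 16 had 1 of the Trpa1 list and 30 had 1 of the Fam150b list. Among the CGRP nociceptors left out by a list, Sstr2, Dcdc2a and Gpr64 were each seen in the largest share of barcodes in the Cyp1b1 group. Sstr2 was at 64.6 CPM (51.9 to 79.5) there, Dcdc2a at 165 CPM (145 to 188) and Gpr64 at 65.3 CPM (52.5 to 80.3). In the Trpa1 group Sstr2 and Gpr64 were each at 11.9 CPM (4.8 to 24.6) and Dcdc2a rested on 1 UMI.

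Outside the CGRP nociceptors, a UMI of Gpr64 was seen in more barcodes than one of Sstr2 or Dcdc2a. Neurons with 3 or more markers of a single other class, in sets with median depths of 2930 to 4580 UMIs, were used for this. The Mrgpra3 class had only 1 such barcode (23014 UMIs) and was not read. Gpr64 was seen in 58.9% (52.1 to 65.5%) of 219 neurons with markers of low-threshold C fibres, which respond to gentle touch, and its level there was 268 CPM (237 to 302). It was seen in 36.2% (32.2 to 40.2%) of 578 neurons with markers of large myelinated neurons and in 15.7% (9.97 to 23.0%) of 134 with markers of cold-sensing neurons. Neurons with markers of the Mrgprd class, non-peptidergic nociceptors of the skin, showed it in 2 of 269. A UMI of Sstr2 was found in 4 of the 578 large myelinated neurons and in none of the low-threshold C-fibre or cold sets. At a limit of 3 counts, this allows shares of barcodes with a UMI of up to 1.37% and 2.24% (Clopper-Pearson upper ends 1.67% and 2.72%), and it does not limit the share of neurons that express the gene. Dcdc2a was found in 14 of those 578 and in 1 of the low-threshold C-fibre set. Glia-like barcodes, which should lack these genes, showed Sstr2 in 0 and Dcdc2a and Gpr64 in 1.49% each of 134 barcodes (median 1411 UMIs).

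**Figure D2:**
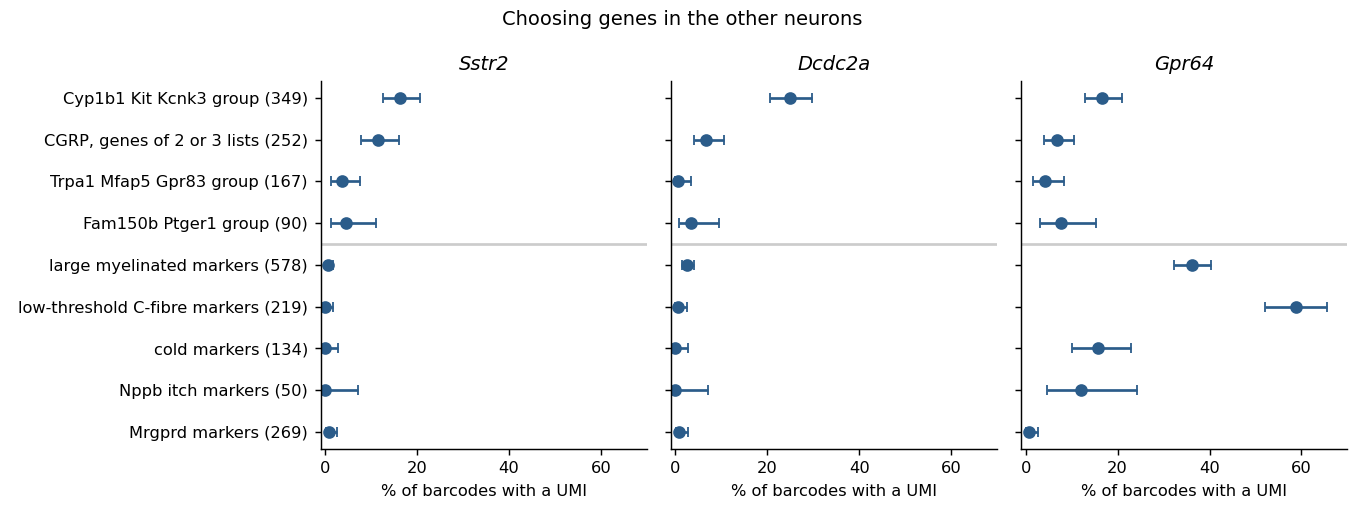
Share of barcodes with a UMI (x axis, percent) of Sstr2, Dcdc2a and Gpr64 in the other CGRP nociceptors (above the line) and in neurons with markers of other classes (below it), with the number of barcodes in brackets and exact binomial 95% intervals. Sstr2 and Dcdc2a were most frequent in the Cyp1b1 group and reached at most 2.42% under the line, while Gpr64 reached 58.9% in the low-threshold C-fibre set.

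The chosen neurons carried several peptides at once. Tac1 was seen in 118 of the 119, with 0, 14 and 78 UMIs as the lowest, median and highest count. Galanin (Gal), a peptide that modulates transmission in the dorsal horn, was seen in 98 neurons (82.4%, 74.3 to 88.7%), with 0, 3 and 24 UMIs. Adcyap1, which encodes PACAP, was seen in 85.7% (78.1 to 91.5%), and Bdnf, a growth factor released by nociceptors, in 66.4% (57.2 to 74.8%). Scg2, a granin of secretory granules, was seen in 91.6% (85.1 to 95.9%). In the glia-like barcodes, the shares were 10.4% for Tac1, 0.746% for Gal, Adcyap1 and Bdnf alike, and 7.46% for Scg2. All 3 of Gal, Tac1 and Adcyap1 were found together in 89 neurons (74.8%, 66.0 to 82.3%). The same combination was found in 31.4% (26.9 to 36.3%) of the unmarked, 50.3% (42.5 to 58.1%) of the Trpa1 and 79.7% (75 to 83.8%) of the Cyp1b1 group.

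Trpv1, the heat and capsaicin channel, was at 437 CPM (367 to 518) in the chosen neurons, against 508 CPM (452 to 569) in the Trpa1 and 416 CPM (382 to 451) in the Cyp1b1 group. A UMI of Trpv1 without one of Piezo2, the mechanical channel, was seen in 58 chosen neurons (48.7%, 39.5 to 58.1%), of Piezo2 without Trpv1 in 11, of both in 12 and of neither in 38. Trpv1 without Piezo2 was seen in 72.5% (65.0 to 79.1%) of the Trpa1 group and 51.9% (46.5 to 57.2%) of the Cyp1b1 group. The sodium channels of nociceptors, Scn10a (Nav1.8) and Scn11a (Nav1.9), were at 389 CPM (323 to 465) and 521 CPM (444 to 608), and each lay within 1.5-fold of its level in the Trpa1 and Cyp1b1 groups.

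**Figure D3:**
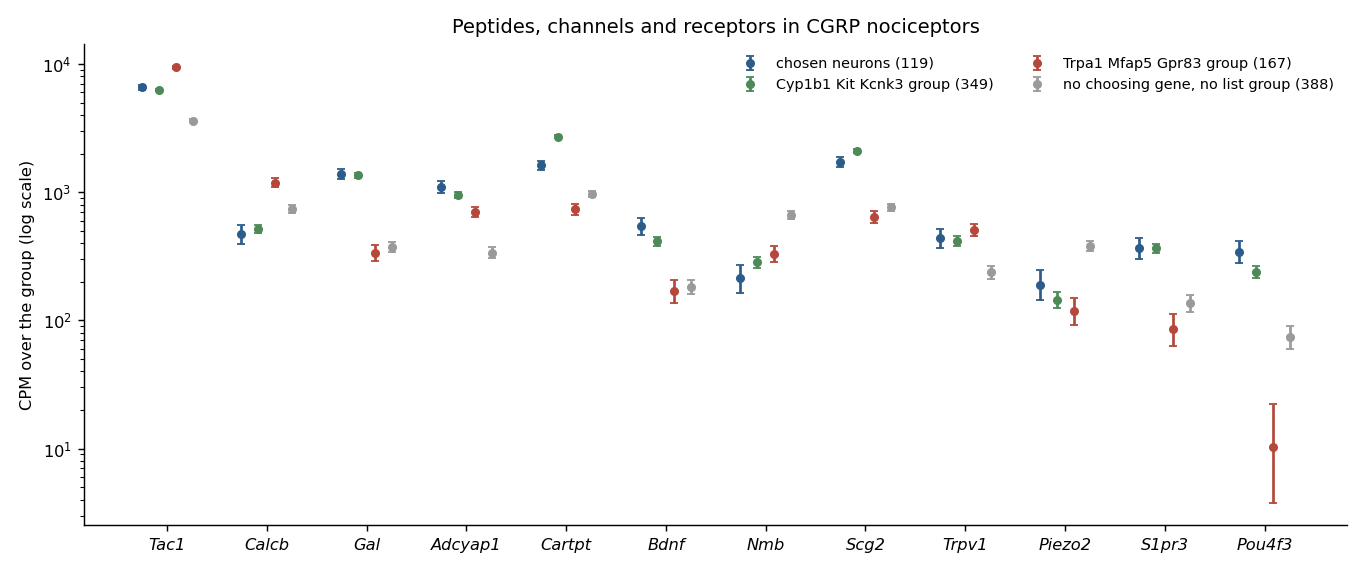
Level in CPM (y axis, log scale) of peptides, channels, receptors and Pou4f3 (x axis) in the chosen neurons (blue) and the Cyp1b1 (green), Trpa1 (red) and unmarked (grey) groups, with exact Poisson 95% intervals. Gal, Bdnf, S1pr3 and Pou4f3 lay higher in the chosen neurons and the Cyp1b1 group than in the other 2 groups, with Pou4f3 at 341 and 240 CPM against 10.2 CPM in the Trpa1 group.

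The first comparison was with the unmarked group, which differs by the rule in the choosing genes alone. Of 5550 genes with 50 or more UMIs over both groups, genes of the rule left out, 521 (9.39%) were more than 2-fold apart, 143 (2.58%) of them higher and 378 (6.81%) lower in the chosen neurons. Among the named higher genes were Pou4f3, a homeodomain transcription factor (341 against 73.9 CPM, 4.61-fold), Aldh1a3, a retinaldehyde dehydrogenase that makes retinoic acid (222 against 42.0 CPM, 5.28-fold), and Gsta4, a glutathione transferase (193 against 37.4 CPM, 5.17-fold). Marcksl1, an actin regulator, was 5.51-fold higher, and Pcp4, a calmodulin-binding protein, 4.02-fold. Ptprd, a receptor tyrosine phosphatase, was 4.61-fold higher, Zcchc12 4.18-fold, Mfap3l 4.0-fold, Nrsn1 3.95-fold and D430036J16Rik 3.82-fold.

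The lower genes of this comparison included markers of another class of nociceptor: all 5 markers of the Mrgprd class with enough UMIs were more than 2-fold lower, beside 6.81% of all genes. The whole list of 7 markers had 6 UMIs in the chosen neurons and 1121 in the unmarked group. Its genes thus passed the minimum through the group where they are high, and this count is a description. Tmem233 had 3 UMIs in the chosen neurons and 1569 in the unmarked group (log2 -6.98, interval -9.26 to -5.43). Mrgprd, the receptor that names the non-peptidergic class, had 1 against 350 UMIs (log2 -6.4, -11.71 to -3.92). Tmem45b had 0 against 419 UMIs, with a log2 interval that ended at -4.77. Aprt, Acpp, Klhl5, Synpr, Ctxn3 and Prkca were also lower, each with 1 to 5 UMIs in the chosen neurons and a log2 interval that ended between -3.78 and -3.03. Beside this stands the makeup of the unmarked group: 22.4% of its barcodes had 2 or more markers of large myelinated neurons, 13.4% of the Mrgprd class and 5.15% of the Mrgpra3 class, against 5.88%, 0% and 0.840% of the chosen neurons.

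Without the 9 chosen and 145 unmarked barcodes that had 2 or more markers of another class, 91 of 3193 genes (2.85%) were more than 2-fold apart, 29 higher (0.908%) and 62 lower (1.94%). Zcchc12 (1.96-fold), Nrsn1 (1.96-fold) and Mfap3l (1.89-fold) were then within 2-fold. Marcksl1 and D430036J16Rik were no longer among the genes with 50 or more UMIs and were not read. Pou4f3 was at 358 against 90.7 CPM (log2 ratio 1.98, interval 1.45 to 2.53). Gsta4 (log2 1.69, 1.03 to 2.37), Samsn1, an adaptor protein (1.69, 1.02 to 2.38), Ptprd (1.43, 0.73 to 2.14), Aldh1a3 (1.19, 0.64 to 1.75), Mgst3, a microsomal glutathione transferase (1.02, 0.70 to 1.34), and Pcp4 (1.01, 0.63 to 1.40) were also past 2-fold. Tmem233 (log2 -5.01, -8.07 to -3.12, on 2 against 113 UMIs), Prkca, the alpha isoform of protein kinase C (-3.49, -5.8 to -1.87), and Nav1, a neuron navigator protein (-3.0, -4.66 to -1.71), stayed lower. So did Gnai1, an inhibitory G protein subunit (-1.54, -2.36 to -0.80). Nr2f2, an orphan nuclear receptor, was past 2-fold lower without these barcodes (-1.65, -2.95 to -0.55) and not with all of them (-0.90, -2.01 to 0.06), and the same held for Ngfr, the low-affinity neurotrophin receptor (-1.53, -2.44 to -0.72, and -0.61, -1.33 to 0.04).

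Peptides depended on those barcodes. With all barcodes, 3 of 7 neuropeptide genes with enough UMIs were more than 2-fold higher in the chosen neurons than in the unmarked group, beside 2.58% of all genes. These were Gal (1383 against 376 CPM, 3.68-fold), Adcyap1 (1103 against 337 CPM, 3.27-fold) and Bdnf (540 against 182 CPM, 2.97-fold), and Nmb was lower (212 against 665 CPM). With the barcodes of other classes left out, 0 of 7 were past 2-fold, near the 2.85% of all genes. The log2 ratios were then 0.97 (0.64 to 1.31) for Bdnf, 0.79 (0.59 to 0.99) for Gal, 0.70 (0.48 to 0.92) for Adcyap1 and -0.07 (-0.15 to 0.01) for Tac1.

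Against the Trpa1 group, 216 of 3646 genes (5.92%) were more than 2-fold apart, 78 higher (2.14%) and 138 lower (3.78%). Pou4f3 had the highest ratio of the named genes, with 106 UMIs in 119 chosen neurons and 6 UMIs in 167 of the Trpa1 group (341 against 10.2 CPM, 33.3-fold, log2 5.06, interval 3.89 to 6.54). It was seen in 47.1% (37.8 to 56.4%) of the chosen neurons and 2.99% (0.979 to 6.85%) of the Trpa1 group. Gsta4 was 14.1-fold higher (193 against 13.6 CPM) and Pcp4 9.97-fold (476 against 47.8 CPM). Samsn1, Ptprd, Zcchc12 and Arvcf, a catenin, were 4.52- to 5.40-fold higher, and Tuba4a, an alpha tubulin, was 4.19-fold higher. The sphingosine 1-phosphate receptor S1pr3 was at 364 against 85.3 CPM (4.26-fold) and Gal at 1383 against 336 CPM (4.12-fold).

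In the other direction, Tmem233 was 54.6-fold lower (3 against 309 UMIs, log2 -5.77, interval -8.06 to -4.21). Gabra3, a GABA-A receptor subunit, had 1 against 68 UMIs (log2 -5.17, -10.5 to -2.65) and Slc24a2, a potassium-dependent sodium/calcium exchanger, 3 against 101 (-4.16, -6.46 to -2.57). Prkca was 15.1-fold lower (16.1 against 242 CPM) and Nav1 10.1-fold (29.0 against 293 CPM). Tspan8, Gna14, Rasgef1a, Cdk15 and Lpar3 were 9.15- to 17-fold lower on 2 to 4 UMIs in the chosen neurons, with log2 intervals that ended between -2.49 and -1.74. Of 19 transcription factors with enough UMIs, Pou4f3 was higher and Nr2f2 lower (32.2 against 222 CPM, 6.89-fold), and the others were within 2-fold, beside 2.14% of all genes higher and 3.78% lower. The peptides again divided, beside the same shares of all genes: of 7 tested, Gal, Bdnf (540 against 169 CPM, 3.20-fold) and Cartpt, which encodes the CART peptide (1615 against 733 CPM, 2.20-fold), were higher and Calcb, the paralog of Calca, was lower (470 against 1187 CPM, 2.53-fold).

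Channels and receptors went both ways against the Trpa1 group, in lists of few genes with enough UMIs and beside 5.92% of all genes. Of 3 mechanical and acid-sensing genes, the acid-sensing channel Asic3 was higher (241 against 66.5 CPM, 3.63-fold, log2 1.86, interval 1.28 to 2.46) and Asic1 lower (3 against 48 UMIs, log2 -3.08, -5.41 to -1.45). Of 6 potassium channel genes, Kcnk2 (2.04-fold) and Kcnb2 (2.56-fold) were higher and Kcnip4 lower (4.77-fold). Scn2b was lower among 4 sodium channel genes (2.15-fold) and Cacnb4 among 5 calcium channel genes (3.48-fold). Of 5 receptors for inflammatory signals, S1pr3 was higher and Lpar3 lower, and of 5 trophic factor receptors, Gfra4 was higher and Gfra3, the artemin receptor, lower (277 against 699 CPM, 2.53-fold). Rgs4, which shortens the signalling of inhibitory G proteins, was 2.77-fold lower (331 against 918 CPM), 1 of 6 genes of somatostatin signalling. Against the unmarked group it was 5.13-fold lower (331 against 1699 CPM), and 2.17-fold lower with barcodes of other classes left out.

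Against the Cyp1b1 group, 146 of 5755 genes (2.54%) were more than 2-fold apart, 29 higher (0.504%) and 117 lower (2.03%). Most of these rested on few UMIs. Among the 1758 genes with 200 or more UMIs over both groups, 7 (0.398%) were past 2-fold, and the same minimum gave 8.06% against the unmarked and 3.81% against the Trpa1 group. The groups differ in their numbers of barcodes and depths, which bear on these shares. Among the 7 genes against the Cyp1b1 group, Pcp4 (476 against 206 CPM, 2.31-fold, log2 interval 0.91 to 1.5) and Lxn, a carboxypeptidase inhibitor (341 against 144 CPM, 2.37-fold), were higher. The Lxn ratio fell to 0.48 on the log2 scale with 10 or more Calca UMIs, no longer past 2-fold. Resp18, a protein of the regulated secretory pathway (54.7 against 194 CPM, 3.56-fold), Hspb1, a small heat shock protein (106 against 321 CPM, 3.02-fold), Gnai1 (67.6 against 159 CPM, 2.35-fold) and Ngfr (70.8 against 153 CPM, 2.16-fold) were lower.

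None of the 7 neuropeptide genes tested was more than 2-fold from the Cyp1b1 group, beside 2.54% of all genes, so that this count is near the share over all genes. Gal was at 1383 against 1351 CPM (log2 0.03, interval -0.12 to 0.19), S1pr3 at 364 against 364 CPM, Adcyap1 at 1103 against 958 CPM and Pou4f3 at 341 against 240 CPM. Cartpt had the widest gap, at 1615 against 2713 CPM (log2 -0.75, -0.89 to -0.61). Of 26 transcription factors, Zfhx2 was higher (18 against 32 UMIs, 2.49-fold, log2 interval 0.40 to 2.19). Lower genes named by size included Tspan8 (6.24-fold), Chp2, a calcineurin-like protein (5.86-fold), Nudt9 (4.17-fold), Spock3, a proteoglycan (3.91-fold), Trappc3l (3.77-fold) and the toll-like receptor Tlr4 (3.61-fold), on 3 to 7 UMIs each in the chosen neurons and with log2 intervals that ended between -1.04 and -0.22. Isy1, Rabggta and Nfkbiz were 3.79- to 4.06-fold lower on 3 to 5 UMIs, with intervals that ended between -0.64 and -0.37. Higher genes other than Pcp4, Lxn and Zfhx2 were 1110032F04Rik, Neat1, Ept1, Pde10a, Csgalnact1, Ddx52 and Gpr85, at 2.28- to 2.86-fold on 17 to 27 UMIs.

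A list of 20 genes taken from the longer set in the study's heat map of neuron classes was counted as well. The study drew up that set on these same cells, the 20 were picked from it for this comparison, and neither is independent evidence. Of 17 tested against the unmarked group, where 9.39% of all genes were past 2-fold, 6 were higher (Tmem100, Gal, Gpx3, Adcyap1, S1pr3 and Gsta4) and 4 lower (Ctxn3, Aprt, Acpp and Trappc3l). With barcodes of other classes left out, 1 of 11 was higher (Gsta4) and 1 lower (Resp18), beside 2.85% of all genes, with a median log2 ratio of 0.10. Against the Trpa1 group, 3 of 13 were higher and 3 lower (5.92% of all genes), and against the Cyp1b1 group none of 14 was higher and 2 were lower (Trappc3l and Resp18), beside 2.54% of all genes. The medians of the list were 0.86, -0.22 and -0.03 on the log2 scale, beside -0.01, -0.02 and 0.00 over all genes tested.

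Genes that went with the choosing genes could be looked for in neurons that the rule had left out. This comparison was added after the others had been seen. In the Cyp1b1 group, 135 barcodes had a choosing gene (median 3815 UMIs) and 214 had none (median 2675 UMIs). Of the whole group, 12.3% of barcodes had 2 or more markers of large myelinated neurons. Barcodes with markers of other classes were kept here, and their part in the differences was not tested. Of 5026 genes, 83 (1.65%) were more than 2-fold apart, 30 higher with a choosing gene (0.597%) and 53 lower (1.05%). Calca (log2 0.02, interval -0.03 to 0.06) and Trpv1 (0.02, -0.23 to 0.26) were at near equal levels on both sides, and Tac1 differed by 0.14 (0.08 to 0.20).

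Higher with a choosing gene were Pde1a, a calmodulin-dependent phosphodiesterase (72.6 against 14.2 CPM, 5.11-fold), Samsn1 (169 against 37.0 CPM, 4.57-fold), Gsta4 (159 against 45.5 CPM, 3.49-fold) and Hs6st2, a heparan sulfate sulfotransferase (314 against 101 CPM, 3.11-fold). Pcp4 followed (310 against 107 CPM, 2.91-fold), with the vasopressin receptor Avpr1a (81.5 against 28.4 CPM, 2.87-fold) and Aldh1a3 (212 against 81.0 CPM, 2.62-fold). Stard13, St3gal4 and the transcription factor Meis2 were 2.5- to 2.71-fold higher. Pou4f3 was not past 2-fold here (261 against 220 CPM).

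Other genes were lower with a choosing gene. Sfrp1, a secreted Wnt inhibitor, had 4 against 50 UMIs (12-fold) and Chl1, a neural adhesion molecule, 9 against 65 UMIs (6.93-fold). Chp2 was 5.84-fold lower (16.3 against 95.2 CPM) and Spock3 4.91-fold (25.2 against 124 CPM). Nrp1, a semaphorin receptor, was 4.32-fold lower (32.6 against 141 CPM) and Pcdh17, a protocadherin, 3.42-fold (47.4 against 162 CPM). S100b, St8sia3, Plcb1 and Crip1 were 3.94- to 5.21-fold lower, and S100b is a marker of large myelinated neurons. Dcn, a gene of the Cyp1b1 list and so part of the rule, was at 310 against 941 CPM.

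These 20 genes were then read in the chosen against the unmarked neurons, which share no barcode with the Cyp1b1 group, although the runs were the same. All 10 of the higher genes were again higher, 8 of them past 2-fold. Of the 8 with 50 or more UMIs, 6 were past 2-fold, beside 2.58% of all genes with that many. All 10 of the lower genes were again lower, 7 of them past 2-fold. The log2 intervals of Sfrp1 (-2.62 to 0.43) and Pcdh17 (-1.66 to 0.01) held 0. Of the 8 with 50 or more UMIs, 6 were past 2-fold, beside 6.81%. Genes pass that minimum more readily through the group where they are high, so these counts are a description. With barcodes of other classes left out, 6 of the 10 and 9 of the 10 were past 2-fold, most of the lower genes on fewer than 50 UMIs. Of the higher genes with 50 or more, 4 of 6 were past 2-fold, beside 0.908%. Only 3 lower genes (Chl1, Crip1 and Pcdh17) had that many, mostly from the unmarked group, so that no share is set beside them. Avpr1a was at 83.6 against 11.7 CPM, Pde1a at 83.6 against 13.2 CPM and Samsn1 at 203 against 64.6 CPM with all barcodes. The exceptions among the higher genes were Hs6st2 (360 against 356 CPM) and Meis2 (51.5 against 41.2 CPM), whose log2 intervals held 0. The median depth was higher with a choosing gene in both comparisons, although the deepest unmarked barcode had 35625 UMIs and the deepest chosen neuron 10729, and the part of depth in the pattern was not tested.

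**Figure D4:**
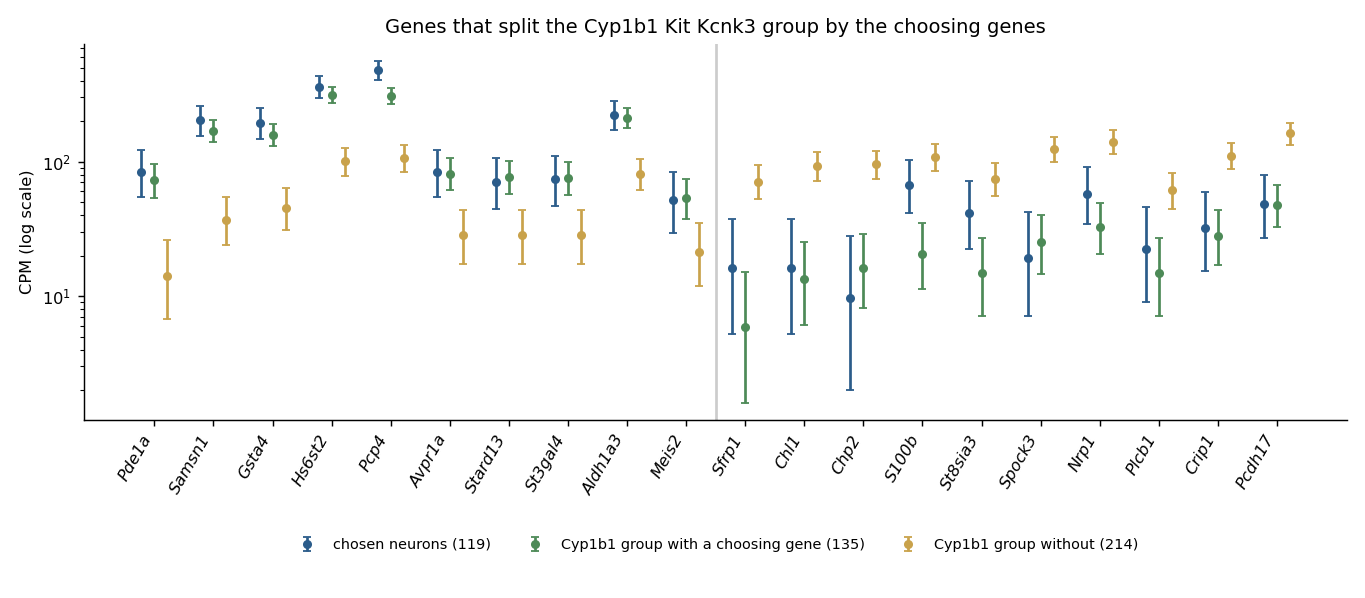
Level in CPM (y axis, log scale) of the 10 genes furthest higher (left of the line) and 10 furthest lower (right) in Cyp1b1-group neurons with a choosing gene (green) against those without (tan), shown beside the chosen neurons (blue), with exact Poisson 95% intervals. In the order blue, green and tan, Samsn1 lies at 203, 169 and 37.0 CPM and S100b at 67.6, 20.8 and 108 CPM.

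A few of these genes, with Pou4f3 and Tmem233 from the comparisons above, were read in the 3 further groups that the rule had left out. In the mixed group, 48 barcodes with a choosing gene (median 7903.5 UMIs) and 204 without (5562 UMIs) differed in Gsta4 (67.4 against 11.4 CPM, log2 2.57, interval 1.64 to 3.55), Pcp4 (142 against 35.5 CPM, 2.0, 1.43 to 2.57) and Pou4f3 (151 against 64.6 CPM, 1.22, 0.74 to 1.70). Tmem233 was lower there (41.8 against 354 CPM, -3.08, -3.85 to -2.41), while Samsn1 differed by 0.18 (-1.10 to 1.32) and Aldh1a3 by 0.57 (0.11 to 1.02). In the Fam150b group, only 11 barcodes had a choosing gene, and Pcp4 (26 against 4 UMIs in 79 without) and Gsta4 (18 against 4) were again higher, while Aldh1a3 had 0 against 2 UMIs. Samsn1 (log2 1.90, 0.68 to 3.10) was higher and Tmem233 (-1.40, -1.85 to -0.98) lower there, and the interval of Pou4f3 (1.12, -0.41 to 2.51) held 0. In the Trpa1 group, 13 barcodes had a choosing gene and 154 had none, and Tmem233 was not clearly lower with one (35 against 274 UMIs, 421 against 545 CPM, log2 -0.37, -0.92 to 0.14). Aldh1a3 was lower there with a choosing gene (1 against 44 UMIs, log2 -2.86, -8.2 to -0.31). Gsta4 (3 against 5 UMIs), Pcp4 (2 against 26), Pou4f3 (0 against 6) and Samsn1 (0 against 22) had intervals that held 0.

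Chosen neurons with and without a gene of the Cyp1b1 list had near levels of some of the genes above. Pou4f3 was at 342 CPM (268 to 431) in the 74 with 1 such gene and 339 CPM (235 to 474) in the 45 with none, and Pcp4 at 432 CPM (348 to 531) and 568 CPM (430 to 736). Levels were further apart for Zcchc12, at 366 CPM (289 to 457) and 140 CPM (76.3 to 234), and for Trpv1, at 513 CPM (421 to 619) and 279 CPM (185 to 403), with no overlap of the intervals. Those of Gsta4, at 228 CPM (168 to 302) and 120 CPM (61.8 to 209), overlap. The median depths were 2353.5 and 1933 UMIs.

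The chosen neurons were also compared by the gene that chose them. Between the 24 neurons with Sstr2 alone and the 35 with Dcdc2a alone, 6 of 541 genes (1.11%) were more than 2-fold apart. Between Sstr2 alone and the 27 with Gpr64 alone it was 16 of 426 (3.76%), and between Dcdc2a alone and Gpr64 alone 17 of 511 (3.33%). Of the first 6, Scn11a, a sodium channel of nociceptors, was higher with Sstr2 alone, at 799 CPM (596 to 1047) against 370 CPM (250 to 528) with Dcdc2a alone, although 21.2% of its UMIs with Sstr2 alone came from 1 neuron. The other 5 were lower with Sstr2 alone. They were the growth hormone gene Gh and the haemoglobin gene Hbb-bt, of whose UMIs with Dcdc2a alone 82.2% and 48.2% came from 1 neuron, and Rps21, Rps20 and Cct5 (log2 -1.14, -1.08 and -1.11).

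Neurons with Gpr64 alone had a lower level of the granin Scg2 than both other sets, and the peptides were mixed. Scg2 was at 1056 CPM (815 to 1346), against 1751 CPM (1444 to 2103) with Sstr2 alone and 2135 CPM (1828 to 2477) with Dcdc2a alone. Mgst3 was at 276 CPM (161 to 442), against 829 CPM (623 to 1082) and 432 CPM (301 to 601), of which the last overlaps. Gal was at 926 CPM (702 to 1200), below the 1612 CPM (1319 to 1952) of Sstr2 alone, with overlap with the 1333 CPM (1093 to 1609) of Dcdc2a alone. Cartpt was at 1593 CPM (1293 to 1941), between 1013 CPM (784 to 1289) with Sstr2 alone and 1715 CPM (1442 to 2025) with Dcdc2a alone. Calca, a gene of the rule, was at 9653, 14066 and 13424 CPM with Gpr64, Sstr2 and Dcdc2a alone. Lxn was higher, at 845 CPM (631 to 1108), against 169 CPM (84.3 to 302) and 358 CPM (240 to 514), although 38.5% of its UMIs came from 1 neuron. That neuron (3217 UMIs) had 6 Calca, 20 Lxn, 3 Scg2 and 1 Gal UMIs. Others with little Calca for their depth include those of 2958 UMIs (8, 9, 0 and 4) and 8158 UMIs (19, 12, 1 and 0). A neuron with Dcdc2a alone (6335 UMIs) had 5 Calca, 14 Lxn, 6 Scg2 and 14 Gal UMIs. The part of such neurons in the differences of the Gpr64-alone set was not tested. Haemoglobin RNA went with this set too, with Hbb-bs at 13602 CPM (12696 to 14556), against 3624 CPM (3176 to 4117) and 7119 CPM (6550 to 7725), and its part in these differences was not tested.

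Neuron by neuron, the peptides varied unequally. With each of the 119 thinned to 1000 UMIs, Calca ran from 2 to 27 with a median of 14 and Tac1 from 0 to 21 with a median of 6. Cartpt was the most uneven of the peptides: 57 neurons had none, the median was 1 and the highest 25. Its variance over the mean was 7.01, against 2.61 for Tac1 and a median of 1.05 over 1036 genes, where 1 is the value of counting error alone. Gal had a median of 1 and a highest count of 6, with 36 neurons at 0, and Bdnf was at 0 in 71 neurons. Larger values were found for genes that include Hbb-bs (31.4) and Hba-a1 (11.8), of red cells, Gh (29.5), of the pituitary, and Malat1 (7.58).

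**Figure D5:**
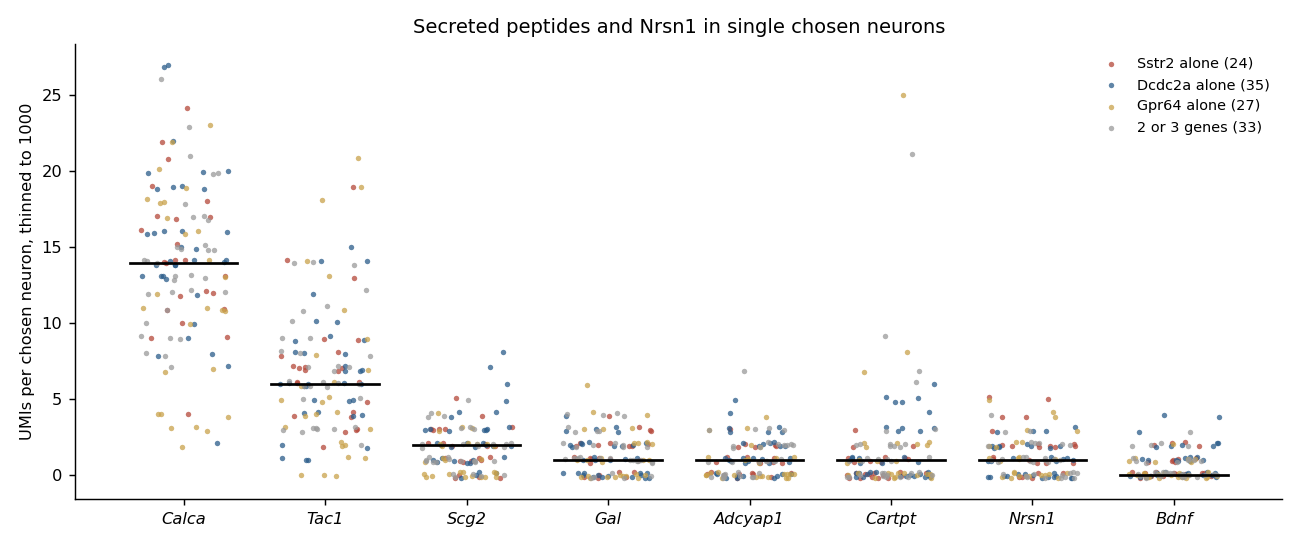
UMIs (y axis) of 7 secreted peptides or granins and of Nrsn1 (x axis) in each of the 119 chosen neurons after thinning to 1000 UMIs, with a point per neuron coloured by the gene that chose it, moved at random by up to 0.2 UMIs and sideways to part the points, and medians as black lines. Calca lies around its median of 14, and Cartpt has its highest points at 21 and 25.

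RNA of other cells was present. The 5 erythroid genes summed to 12250 CPM in the chosen neurons, against 5400 in the unmarked, 5141 in the Trpa1 and 8796 CPM in the Cyp1b1 group. Of 4 tested against the unmarked group, 3 (Hba-a1, Hbb-bs and Hbb-bt) were more than 2-fold higher, beside 2.58% of all genes. The same 3 were the only ones tested against the Trpa1 group and were all higher, beside 2.14% of all genes. The 8 glial genes summed to 1255 CPM, with 35.9% of these UMIs in 1 neuron, against 665 to 1268 CPM in the other groups, and the 6 pituitary genes to 412 CPM, with 46.9% in 1 neuron. No UMI was found of the 6 immune or the 5 fibroblast and mural genes, and Cldn5, Pecam1 and Flt1 of the 5 endothelial genes were at 0. Without the 30 chosen neurons, and the 71, 18 and 61 barcodes of the other groups, that were rich in such RNA, no named gene of the 3 comparisons changed its direction. Whether a barcode held more than 1 cell was not tested, and no doublet was removed. Barcodes that ended in an N, 11 of the 119 and 528 of all, are incomplete sequences. In 1 pair of chosen neurons the barcodes differed in such an N alone and may be 1 bead, with 1274 and 1258 UMIs. No chosen neuron was among the 12 columns whose barcode sequence occurs in 2 columns.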

How the data were processed

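Dropseq libraries of 9 runs were mapped by the authors, who deposited 1 table of UMI counts per gene and barcode, not normalized. The submitters' processing notes name bcl2fastq 2.17, STAR 2.5.3a, Seurat 1.4.0.16 and mm10. The neurons, groups and gene lists were chosen with earlier results of these data known. Counts were summed per group and given as CPM. With 1 pooled sample no test was made, and genes were called past a 2-fold ratio among those with 50 or more UMIs over both groups. Named genes were the 10 highest and 10 lowest ratios among genes outside the rule that are not mitochondrial, with a UMI in 5% or more of the barcodes of the higher group, no barcode holding over 20% of its UMIs and an interval leaving out 0. Within gene lists, all tested genes were counted and those highest or furthest apart were named. Ratios against 0 used a limit of 3 UMIs over the group. Thinning drew UMIs without replacement. Barcodes rich in RNA of other cells held 1% or more erythroid or 0.5% or more glial or pituitary UMIs. Positions of the 62 genes looked up, all of which matched, are from RefSeq on GRCm38.p6. Python 3.11.15, NumPy 2.4.6, SciPy 1.17.1 and matplotlib 3.10.9 were used, and the calculations were tested on simulated data. Results of some genes are not reported here.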

Additional observations from a re-analysis of the deposited data

How the results depend on the processing

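Alternatives named by barcodes of other classes, RNA of other cells, barcodes ending in N, a minimum of 200 UMIs or choice by Sstr2 or Dcdc2a only were chosen after seeing the data. The number of chosen neurons depended most on the limits: 48 had 2 or more UMIs of the choosing genes and 26 had no gene of any list, while Calca limits of 3 and 10 UMIs gave 123 and 111. Thinned to 2000 UMIs, which only 66 of the 119 could enter, the rule chose 92 barcodes, of which 52 were among those 66 and 22 came from the Cyp1b1 group. The log2 ratio of Dcdc2a where it did not choose was 1.83 after thinning to 1000 UMIs. Leaving out barcodes of other classes gave 1.31 for Sstr2, 1.53 for Dcdc2a and 1.09 for Gpr64. A minimum of 10 UMIs in place of 50 raised the share of genes past 2-fold to 17.6% against the unmarked, 15.9% against the Trpa1 and 11.7% against the Cyp1b1 group, and a minimum of 200 lowered it to 3.81% and 0.398% against the latter 2. Leaving out barcodes of other classes gave 2.85% against the unmarked group. Against the Cyp1b1 group it was 4.38% with equal weight for each barcode and 6.97% with 2 or more choosing UMIs. With barcodes of 2000 to 8000 UMIs it was 2.63% between Sstr2 alone and Dcdc2a alone and 7.19% between Sstr2 alone and Gpr64 alone. Thinning to 1000 UMIs gave 10.2% for the latter pair and 6.43% between Dcdc2a alone and Gpr64 alone. Over 11 alternatives, none of 219, 220 and 220 values of the named genes changed direction, and 215, 220 and 207 stayed past 2-fold. Lxn against the Cyp1b1 group was among those that did not, at a log2 ratio of 0.48 with 10 or more Calca UMIs. The minimums of 10 and 200 UMIs kept the same barcodes and could not change a ratio. The other alternatives read genes picked for extreme ratios in overlapping barcodes, so these counts of named genes are a description. No run could be left out and no paired analysis was possible because barcodes do not name their run. Low counts per neuron limit every share: a neuron without a UMI may still express the gene.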
